A study of Mus musculus with 2 samples.

Results

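A group of 10 genes of kidney stroma was followed in 2 pools of Tie2-GFP cells sorted from E15.5 mouse kidneys, with 1 array per pool. The genes are the transcription factors Tbx18, Tcf21, Prrx1, Meis1 and Meis2, the surface protein Gas1, and the secreted matrix proteins Dcn, Lum, Ogn and Postn. All probe sets that the platform annotation assigns to exactly 1 of these genes were used, 26 probe sets of 45101, and the 10 genes are among 18193 represented on the array. The genes were picked as stromal genes whose intensities differed between these same 2 arrays, so their differences are described and not tested.

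Both pools belong to 1 group. The cells came from CD-1 embryos at E15.5 (Theiler stage 23) that carry the Tg(TIE2GFP)287Sato transgene, in which the Tie2 promoter drives GFP, and no other genotype or treatment was analysed here. Per the labels, approximately 5 to 10 kidneys were pooled for each sample, dissociated with trypsin, sorted by fluorescence, and the RNA amplified in 2 rounds. The labels number the samples and give no litter or day for them. Technical differences and differences in the make-up of the pools cannot be told apart with these arrays. The sample titles name Flk1 (Kdr) while the reporter is Tie2, and the source is given as endothelium of the renal artery and vein while whole kidneys were dissociated. The Tie2 promoter is known to be active in endothelium and in some blood cells, and not as a marker of stroma.

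Kidney stroma is the loose mesenchyme that lies between the nephrons, the collecting system and the vessels. It is known as the source of interstitial fibroblasts, mesangial cells and the mural cells that wrap vessels, and it signals to nephron progenitors. Its cells lay down fibrillar collagen together with small leucine-rich proteoglycans, which bind collagen fibrils and set their spacing and thickness.

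Values are deposited intensities in arbitrary units on a linear scale, given for replicate 2 and then replicate 1. The background limit, the 95th percentile of 83 probe sets for sensory receptor genes, was 204.1 in replicate 2 and 202.5 in replicate 1. Differences are log2 of replicate 2 minus log2 of replicate 1 after the medians of probe sets above the limit on both arrays were made equal, which removed an offset of 0.03. Where a gene has several probe sets, the brightest by mean log2 intensity stands for it, and the others are given beside it. Over the 22311 probe sets above the limit on both arrays the difference had an SD of 0.50. It was 0.51 for probe sets with mean intensities of 200 to 500, 0.57 from 500 to 2000, 0.46 from 2000 to 10000 and 0.36 above that. This is a spread over probe sets of 1 pair of arrays. It holds any true differences of the pools and gives no error for 1 gene. Levels are compared between the arrays within a probe set, and not between probe sets, except to name a gene that makes up most of a sum. Sums over a list add the representing probe sets of all its measured genes, also those below the limit. They follow the brightest genes of the list. In bulk RNA, fewer cells of a type and less RNA per cell cannot be told apart.

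The sorted cells carried the endothelial markers in both pools. All 12 genes of the endothelial list were above the limit on both arrays, as were 61.0% of all genes. Their summed intensity was 144172 in replicate 2 and 163866 in replicate 1. Tek, which encodes Tie2, gave 21499 and 15908, the VEGF receptor Kdr gave 12139 and 8939, and the adhesion protein Pecam1 gave 2247 and 1257 (0.80). The median difference of the 12 was -0.19, and these 3 alone were higher in replicate 2, where 45.8% of all genes above the limit were. The other endothelial genes were higher in replicate 1, Plvap by the most (13603 and 23145, difference -0.80). The labelled cell type was thus present by its markers in both pools.

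Of the 10 stromal genes, 7 were higher in replicate 2 by over 2-fold and Meis1 by less. Tcf21 was higher too, with only a lower bound on the fold because its replicate 1 value lay below the limit. Meis2 did not follow the description that names the group, with nearly equal values on its highest probe set. Of the 11102 genes above the limit on both arrays, 2.57% were higher in replicate 2 by over 2-fold, and 2.26% were higher in replicate 1 by that much. As the 10 genes were chosen by this difference, nothing is read from their count. Above the limit on both arrays were 9 of the 10 genes, all but Tcf21 (61.0% of all genes on the array), with a median difference of 1.95, against -0.04 over all genes above the limit. Over all 10 genes the median was 1.93.

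At the level of probe sets, 14 of the 26 were above the limit on both arrays, 6 in replicate 2 only, 0 in replicate 1 only and 6 on neither. Among all probe sets of the array, 49.5% were above the limit on both arrays and 4.44% in replicate 2 only. Of the 14, 12 were higher in replicate 2, 7 of them by over 2-fold, where 48.0% of all such probe sets were higher in replicate 2 by any amount and 2.72% by over 2-fold. The 2 that were not higher in replicate 2 both belong to Meis2.

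**Figure D1:**
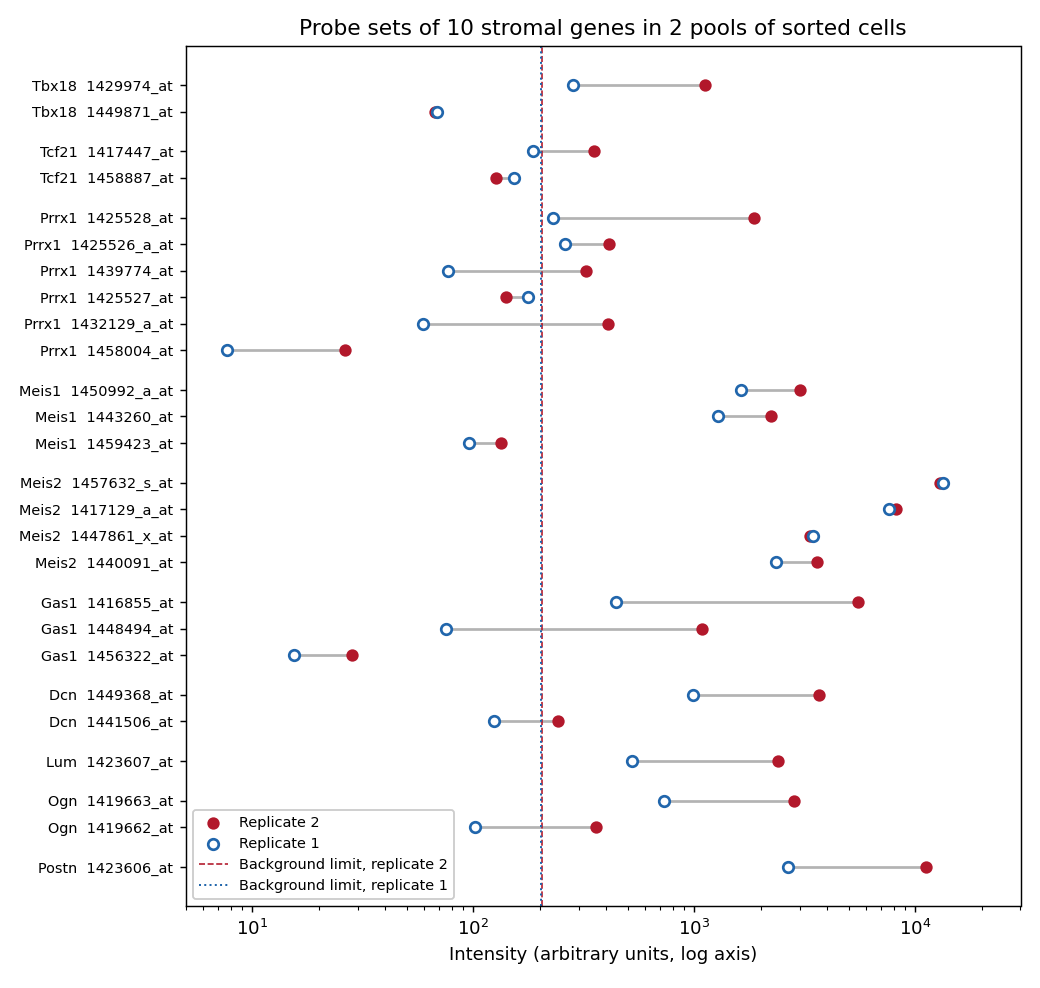
Intensity (log axis, arbitrary units) of all 26 probe sets of the 10 stromal genes in replicate 2 (filled) and replicate 1 (open), with the background limits of both arrays as vertical lines. Bars join the values of 1 probe set. Those of Meis2 lie nearly on each other in 3 of 4 probe sets, and the bar of Gas1 1416855_at runs between 5525 in replicate 2 and 444 in replicate 1.

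Sequences upstream of the annotated starts are shown for the gene with the largest difference (Gas1), for a pair of matrix genes (Ogn and Postn) and for the member with none (Meis2). They are from RefSeq, build GRCm38.p6, matched by symbol, with 9 start sites found for 8 of the 10 genes. Each run is the 250 bases before the start, read 5′ to 3′ on the strand of the gene. Capitals mark TATAAA, the core promoter motif, and CCAAT, the motif known to bind NF-Y, on either strand. The windows are chr13:60177536-60177785 on the minus strand for Gas1, chr13:49607765-49608014 on the plus strand for Ogn, chr3:54360857-54361106 on the plus strand for Postn and chr2:116064620-116064869 on the minus strand for Meis2. Postn has a second annotated start, whose window holds neither motif.
Gas1: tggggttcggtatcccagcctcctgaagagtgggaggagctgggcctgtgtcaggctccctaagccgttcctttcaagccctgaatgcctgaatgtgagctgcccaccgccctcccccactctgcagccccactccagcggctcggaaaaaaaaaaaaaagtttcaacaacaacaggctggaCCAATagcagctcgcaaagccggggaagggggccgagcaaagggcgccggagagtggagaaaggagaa
Ogn: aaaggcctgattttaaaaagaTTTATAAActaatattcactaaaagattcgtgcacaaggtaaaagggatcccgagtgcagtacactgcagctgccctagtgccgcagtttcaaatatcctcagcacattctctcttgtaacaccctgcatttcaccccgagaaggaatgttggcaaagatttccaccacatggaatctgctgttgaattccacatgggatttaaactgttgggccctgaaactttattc
Postn: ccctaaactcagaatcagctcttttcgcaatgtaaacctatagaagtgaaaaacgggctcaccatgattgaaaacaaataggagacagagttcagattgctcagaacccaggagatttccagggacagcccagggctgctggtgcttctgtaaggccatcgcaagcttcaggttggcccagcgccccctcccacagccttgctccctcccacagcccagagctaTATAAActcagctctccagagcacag
Meis2: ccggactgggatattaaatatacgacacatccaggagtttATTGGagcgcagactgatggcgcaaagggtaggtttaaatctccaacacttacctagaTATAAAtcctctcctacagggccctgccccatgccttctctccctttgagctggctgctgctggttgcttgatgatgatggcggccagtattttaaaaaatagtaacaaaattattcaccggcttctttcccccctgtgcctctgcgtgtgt
The Postn window holds TATAAA starting 26 bases before the annotated start. Ogn holds it on both strands in overlapping copies, 229 and 227 bases before the start, and Meis2 holds 1 copy 152 bases before the start. Over the 9 windows TATAAA was found in 3, against 12.4% of 32851 windows of the same length. CCAAT was found in 4 of 9, against 33.8%. TGACAG, the motif known for Meis proteins, was searched on both strands and found in 0 of 9, against 15.9%, and CANNTG, the E-box that bHLH factors such as Tcf21 bind, in 3 of 9, against 66.2%. The E-box matches are not in capitals, and a match is a description of the letters alone.

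The transcription factors of the group ranged between 7.97-fold higher in replicate 2 and no difference. Tbx18, a T-box factor known from the mesenchyme around the ureter and from mural progenitors, gave 1115 in replicate 2 and 282 in replicate 1 with probe set 1429974_at. This is a difference of 1.95, or 3.86-fold, with the replicate 1 value at 1.39 times the limit. Its other probe set, 1449871_at, was below the limit on both arrays, at 67.35 and 68.18. Only 1 of the 2 probe sets for this gene therefore gave a value above background.

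Tcf21, a bHLH factor of stromal and podocyte progenitors, gave 352 in replicate 2 and 186 in replicate 1 with probe set 1417447_at. The replicate 1 value lay just under the limit, so the gene was at least 1.70-fold higher in replicate 2 by the limit, and its measured difference was 0.88. Probe set 1458887_at was below the limit on both arrays, at 126 and 153. Tcf21 is the only member that passed on 1 array alone.

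Prrx1, a paired-type homeobox factor of limb and other mesenchyme, has 6 probe sets, and they disagreed. Probe set 1425528_at gave 1874 in replicate 2 and 229.6 in replicate 1, a difference of 2.99 (7.97-fold), and ranked as number 6 of 11102 genes toward replicate 2. Probe set 1425526_a_at, annotated to the same accession, gave 414 and 259.9, or 1.55-fold. The replicate 1 values of these 2 probe sets lay near the limit, at 1.13 and 1.28 times it. Of the remaining 4, 1432129_a_at gave 405 and 59.3 and 1439774_at gave 324 and 77.2, both above the limit in replicate 2 only, which bounds them at 1.95-fold and 1.56-fold or more. Probe sets 1425527_at (140.4 and 176) and 1458004_at (26.4 and 7.64) were below it on both arrays. Both probe sets above the limit on both arrays were higher in replicate 2, and the sizes could not be reduced to 1 value.

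Meis1 and Meis2 encode homeobox proteins of the TALE class, cofactors that bind DNA together with Pbx and Hox proteins. Meis1, known from stroma and mesangium in the kidney, gave 3005 in replicate 2 and 1629 in replicate 1 with probe set 1450992_a_at. A second probe set, 1443260_at, gave 2225 and 1286. These are 1.80-fold and 1.69-fold, in the same direction and of like size. The last, 1459423_at, was below the limit on both arrays at 133 and 95.55.

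Meis2 was the exception. Its 4 probe sets were all above the limit on both arrays. Probe set 1457632_s_at gave 12961 in replicate 2 and 13308 in replicate 1, 1417129_a_at gave 8197 and 7583, and 1447861_x_at gave 3351 and 3456. Their differences were -0.07, 0.08 and -0.08. In size these lie below the SD of 0.36 to 0.57 over probe sets, which is no error for 1 gene. Only 1440091_at, at 3586 and 2353, differed further, by 0.57 or 1.49-fold. The suffixes _s_at and _x_at mark probe sets that can match transcripts of related genes, so these 2 are uncertain between family members. None of the 7 Meis probe sets differed by over 2-fold.

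Gas1 had the largest difference of the group. It encodes a GPI-anchored protein that binds hedgehog ligands as a co-receptor and is known for arresting growth of fibroblasts. Probe set 1416855_at gave 5525 in replicate 2 and 444 in replicate 1, a difference of 3.60 (12.1-fold), and ranked as number 2 of 11102 genes toward replicate 2. A second probe set, 1448494_at, gave 1086 and 75.5. The replicate 1 value was below the limit, so this probe set was at least 5.24-fold higher in replicate 2. The last, 1456322_at, was below the limit on both arrays at 28.2 and 15.4, and is no measure of the gene here.

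The 4 matrix genes were all higher in replicate 2, between 3.63-fold and 4.48-fold. Dcn and Lum encode the proteoglycans decorin and lumican. Dcn gave 3689.7 in replicate 2 and 993 in replicate 1 with probe set 1449368_at, a difference of 1.86. Its probe set 1441506_at gave 242 and 125, above the limit in replicate 2 only, and at least 1.17-fold higher there.

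Lum has 1 probe set, 1423607_at, which gave 2398 in replicate 2 and 523 in replicate 1, a difference of 2.16. Ogn encodes osteoglycin, another leucine-rich proteoglycan. Its probe set 1419663_at gave 2827 and 733, a difference of 1.91 or 3.76-fold. A second Ogn probe set, 1419662_at, gave 359 and 101, above the limit in replicate 2 only and at least 1.73-fold higher there.

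Postn encodes periostin, a matricellular protein with fasciclin domains that is known to bind integrins and collagen. Its single probe set 1423606_at gave 11251 in replicate 2 and 2650.2 in replicate 1, a difference of 2.05 or 4.14-fold. All 4 matrix genes were above the limit in both pools. The replicate 1 values were 2.58 to 13.1 times the limit, so transcripts of these genes were detected in that pool too. The cells they came from were not measured.

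**Figure D2:**
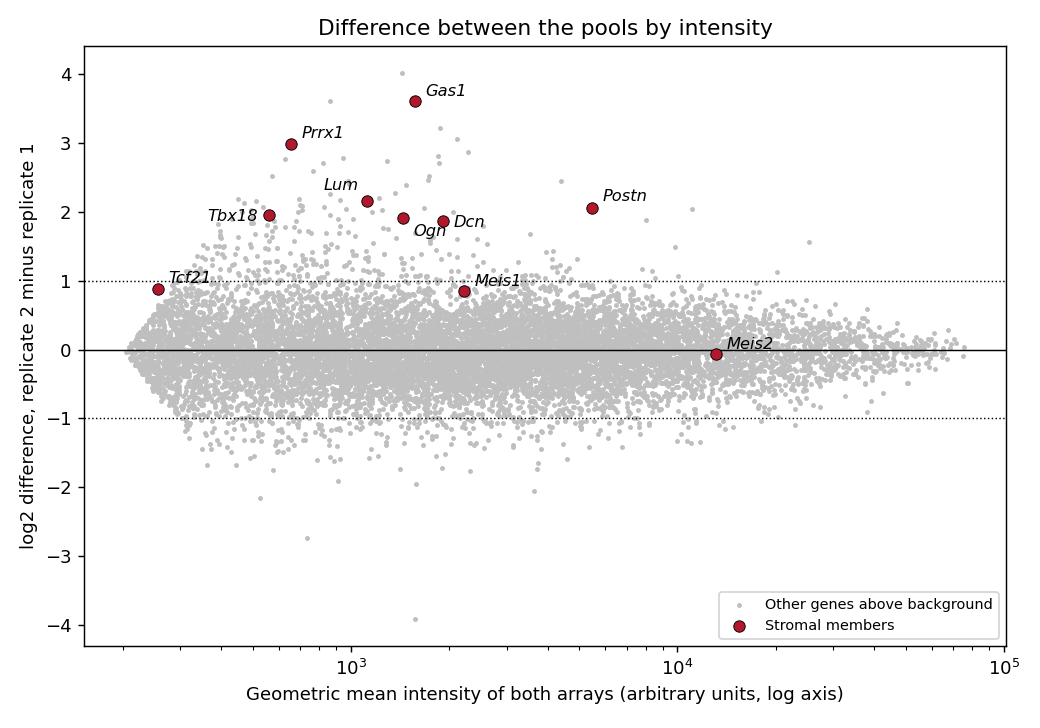
Log2 difference (replicate 2 minus replicate 1) against the geometric mean intensity of both arrays (log axis, arbitrary units) for the genes above background on both arrays (grey) and the 10 stromal genes (red), with dotted lines at 2-fold. Tcf21, below the limit in replicate 1, is drawn at its measured value of 0.88. Gas1 stands highest of the 10 at 3.60 and Meis2 lies at -0.07.

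The paralogs of the members were set beside them, on lists that leave the members out. For comparison with every list below, 61.0% of all genes were above the limit on both arrays. Of those, 45.8% were higher in replicate 2, and 2.57% by over 2-fold. Of 12 other small leucine-rich proteoglycan genes, 3 were above the limit on both arrays, with differences of 0.54 for Fmod, 0.51 for Bgn and 0.00 for Podn. Bgn, biglycan, the close relative of decorin, gave 5922 in replicate 2 and 4057 in replicate 1. Fmod, fibromodulin, gave 313 and 209.7, and Podn, podocan, gave 970.3 and 950.4. None of the 3 reached 2-fold, where 2.57% of all genes did. Of the others, 8 were below the limit on both arrays and Nyx passed in replicate 2 only.

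Dcn and Lum are neighbours on chromosome 10, followed by the corneal keratocan gene Kera and by Epyc, and Ogn lies on chromosome 13 beside Omd, Aspn and Ecm2. Kera (30.4 and 7.21), Epyc (154 and 19.3), Omd (30.2 and 5.88), Aspn (181 and 50.9) and Ecm2 (59.2 and 54.5) were below the limit on both arrays. In these gene clusters, values above background on both arrays were seen for Dcn, Lum and Ogn and not for the proteoglycan genes next to them.

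Of 8 other TALE homeobox genes, 5 were above the limit on both arrays, with a median difference of -0.11. Tgif1, a repressor of TGF-beta responses, was 2.02-fold higher in replicate 2 (1341 and 649) and Pbx2, a Meis partner, 1.62-fold (8503 and 5126). Pknox1, a further partner of Pbx proteins, lay furthest the other way (460.4 and 641, difference -0.51).

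Of 12 other T-box genes, 4 were above the limit on both arrays. Tbx3 gave 1966 in replicate 2 and 1656 in replicate 1, and Tbx2, known as its partner in the ureteric mesenchyme, gave 1219 and 1138. Tbx1 gave 214 and 312, the lowest difference of the 4 at -0.58. None of these 4 was over 2-fold in either direction.

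Of 9 other mesodermal bHLH genes, 3 were above the limit on both arrays, and they pointed both ways. Scx, a factor of tendon progenitors, gave 328 and 237 (0.44) and Mesp2 gave 206 and 257 (-0.36). Tcf15, a factor of somites and of some endothelium, was lower in replicate 2, at 1276 against 4217 in replicate 1 (-1.76). Twist2, a factor of mesenchyme and dermis chosen here after its values were seen, gave 502 and 175, at least 2.42-fold higher in replicate 2 by the limit. Of 5 other paired-type homeobox genes, among them Prrx2 at 70.7 and 86.7, 0 were above the limit on either array.

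Gas1 acts with hedgehog receptors, and 10 of 12 genes of that pathway were above the limit on both arrays. Their median difference was 0.17. Of the 10, 6 were higher in replicate 2 by any amount, where 45.8% of all genes above the limit were, and 1 by over 2-fold, where 2.57% were. That gene was Gli2, the main activator among the Gli factors, at 1421 in replicate 2 and 489 in replicate 1 (2.84-fold). The ligand Dhh, which endothelium and glia are known to make, gave 977 and 528 (0.85), and the signal transducer Smo gave 5765 and 6619.97 (-0.23). The other co-receptors of the Gas1 kind, Cdon (1738 and 1485) and Boc (714 and 767), chosen after their values were seen, differed by 0.19 and -0.14. Both were smaller than the SD of the difference over all probe sets, which is no error for 1 gene.

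Of 9 fasciclin-domain genes and known partners of periostin, all were above the limit on both arrays, with a median of 0.12. Ccn3, a matricellular protein, was 2.36-fold higher in replicate 2 (684 and 283). Fn1, fibronectin, gave 16260.4 and 9627 (0.72), and the scavenger receptor Stab2, of sinusoidal endothelium, gave 3672 and 6367 (-0.83).

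Among the 3 lists of other stromal genes, the list of fibroblast matrix had the highest median difference, and the lists were not tested against each other. The gene furthest toward replicate 2 in the 3 lists was Agtr2, which is not a matrix gene. These lists were written with results of these arrays known and are no independent support. Of 27 fibroblast matrix genes, all were above the limit on both arrays, as were 61.0% of all genes. Of the 27, 25 were higher in replicate 2 and 16 by over 2-fold, with a median of 1.48, beside 45.8% and 2.57% of all genes above the limit. Col6a2 (5775 and 605) and Col6a1 (6182 and 723), chains of collagen VI, which decorin is known to bind, led with 3.22 and 3.06. Sparc, which endothelium also makes, was furthest the other way at 20371 and 29928 (-0.59).

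Of 19 genes for stromal surface proteins and signals, 16 were above the limit on both arrays, 7 of them higher in replicate 2 by over 2-fold, beside 2.57% of all genes above the limit, and the median was 0.94. The angiotensin receptor Agtr2 (5807 and 352) and the PDGF receptor Pdgfra (4811 and 719.8) led with 4.01 and 2.71, and Bmp4 (678 and 717) was lowest with -0.12. Of 19 stromal transcription factors, 15 were above the limit on both arrays, with a smaller median of 0.36. It was -0.00 with the median over the probe sets of a gene. Of the 15, 11 were higher in replicate 2 and 3 by over 2-fold, beside 45.8% and 2.57% of all genes above the limit. Foxd1, the factor that marks cortical stroma, gave 1775 and 775 (1.16), Hoxc10 gave 764 and 353 (1.08) and the retinoic acid receptor Rarb gave 3344 and 5649 (-0.79).

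**Figure D3:**
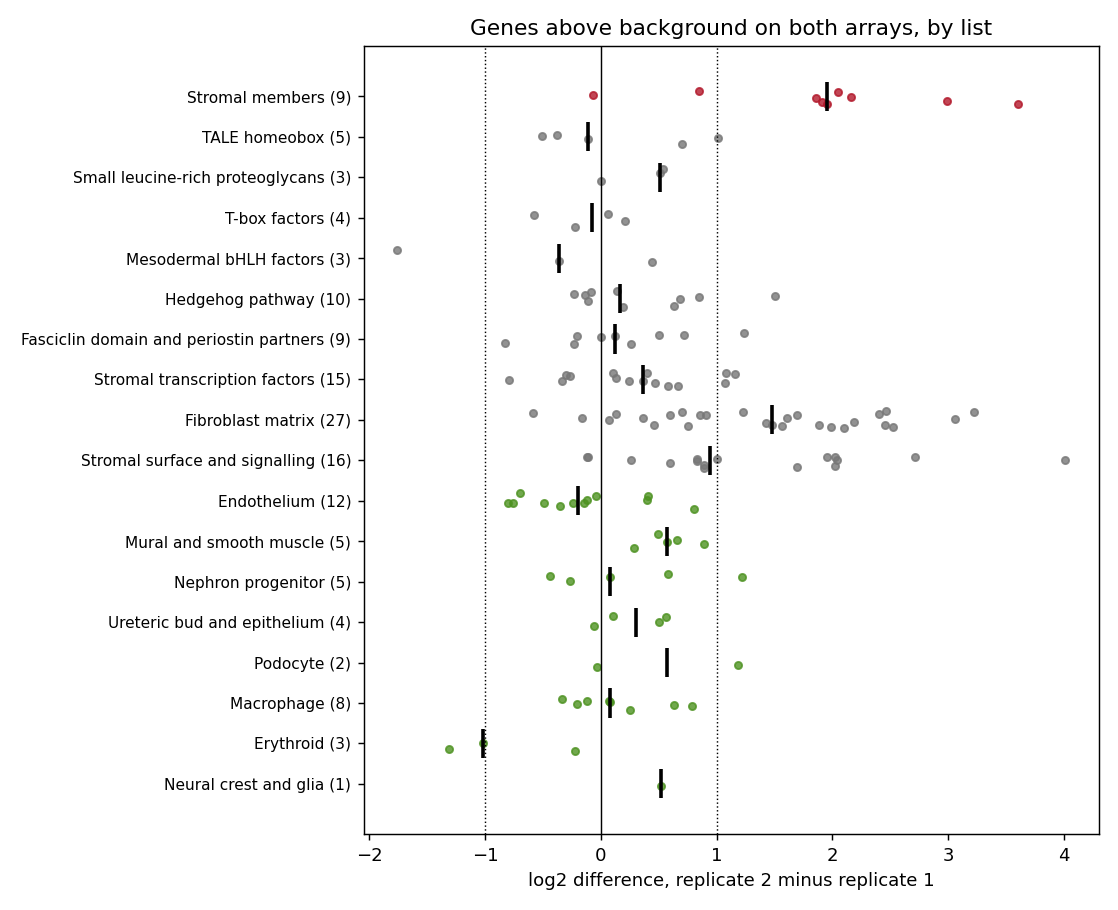
Log2 difference (replicate 2 minus replicate 1) of genes above background on both arrays, as dots, for the stromal members (red), companion lists (grey) and marker lists of cell types (green), with the number of genes in brackets, the list's median as a black bar and dotted lines at 2-fold. The medians are 1.95 for the stromal members, 1.48 for fibroblast matrix and -0.19 for endothelium, and the members were chosen by this difference.

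Markers of cell types that the sort could also have held differed between the pools to different degrees. Of all genes, 61.0% were above the limit on both arrays, and of those 45.8% were higher in replicate 2 and 2.57% by over 2-fold. Of 9 mural and smooth muscle genes, 5 were above the limit on both arrays. All 5 were higher in replicate 2, none of them by over 2-fold, and nothing is read from so small a count. Their median was 0.57. Their list summed to 13375 in replicate 2 and 8042 in replicate 1. Pdgfrb, the receptor of mural and stromal cells, gave 4253 and 2246, and the pericyte gene Rgs5 gave 1838 and 1212. Tagln (334 and 98.8) and Myh11 (278 and 32.4) passed the limit in replicate 2 only, at least 1.61-fold and 1.34-fold higher there. Cnn1 and Des passed on neither array.

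Nephron progenitor genes had 5 of 8 above the limit on both arrays, with a median of 0.08 and sums of 6596 in replicate 2 and 6898 in replicate 1. Most of both sums was Itga8 (3635 and 4817, difference -0.44), so they do not stand for the other genes of the list. Of the 5, 3 were higher in replicate 2. Eya1 passed in replicate 2 only (318 and 124, at least 1.53-fold higher there), and with no filter the median was 0.38. Six2 gave 229.5 and 269, Cited1 was below the limit on both arrays (13.6 and 11.7), and Gdnf was furthest toward replicate 2 (512 and 215). For the ureteric bud and epithelium the count was 4 of 8, the median 0.30 and the sums 2635 and 2415. Wnt11 gave 564 and 374. Ret passed in replicate 1 only (163 and 203), as did Krt18 (154 and 402, at least 2.02-fold higher there). Wnt9b (259 and 188) and Epcam (282 and 181) passed in replicate 2 only, at least 1.25-fold and 1.36-fold higher there. For podocytes it was 2 of 4, the median 0.58 and the sums 32852 and 31113. Most of both sums was Podxl (30060 and 29868), which endothelium is also known to make. Of the other podocyte genes, Nphs1 was below the limit on both arrays (100.2 and 89.1), Wt1 passed in replicate 2 only (347 and 144, at least 1.67-fold higher there) and Synpo was 2.26-fold higher in replicate 2 (2346 and 1012).

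Macrophage genes had 8 of 8 above the limit on both arrays, a median of 0.07 and sums of 74703 in replicate 2 and 68527 in replicate 1, with Csf1r at 36806 and 34030 and Adgre1 at 7632 and 4305. Erythroid genes had 3 of 5, a median of -1.02 and sums of 49925 and 57664. Of the 3, 2 were higher in replicate 1 by over 2-fold, beside 2.26% of all genes above the limit. Nothing is read from so small a count. Most of both sums was Hbb-y, at 48789 and 55397, while Hbb-bh1 gave 467 and 1127 (-1.31) and Hba-x gave 492 and 973 (-1.02). Globin probe sets can share related copies. Of 3 neural crest and glial genes Erbb3 was above the limit on both arrays (356 and 242), Sox10 in replicate 2 only (213 and 173) and Foxd3 on neither (98.8 and 52.1). Their sums were 668 and 468. The part of mural or other cells in the stromal differences was not tested.

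The genes nearest to the members in difference, by the distance to the members' median of 1.95 over 2 arrays, were Ptn, Vcan, Ptgis, Rnf128 and Id4. Their distances on the log2 scale ran between 0.0027 and 0.045. Ptn, the growth factor pleiotrophin, gave 1709 in replicate 2 and 433 in replicate 1, and Vcan, the large proteoglycan versican, gave 4139.9 and 1020.4. With 2 arrays this likeness is 1 number per gene.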

How the data were processed

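The authors deposited 1 intensity value per probe set for each array, on a linear scale, from an Affymetrix 3′ expression array of the mouse genome. The submitters' processing notes name GCOS. The deposited intensity values had been scaled to a shared level, since the means without the lowest and highest 2% were 1500.01 in both replicates. The platform's probe annotation names 1 gene for 34945 probe sets, several for 932 and none for 9160, and 64 are controls. The sources used here name no build for it. Gene identifiers of 34741 probe sets were found in a RefSeq table (GRCm38.p6), which changed 0 symbols. The study's own methods concern a different array and amplification, so they were not applied to these files.

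Intensities were log2 transformed without a pseudocount and centred as described, in Python 3.11.15 with pandas 2.3.3, and the steps were checked on simulated data. For a value below the limit on 1 array, a bound was taken as the other array's centred value over that limit. With 1 group of 2 arrays and members chosen by their difference, no test was made. The members and lists were chosen with earlier results of these data known. Named genes outside the members are, from each companion list, the 2 furthest toward replicate 2 and the 1 furthest toward replicate 1, among those above the limit on both arrays, and from each marker list the first 2 and the 1 furthest toward replicate 2. Named outside this rule, after their values were seen, were Tagln, Myh11, Cnn1, Des, Podxl, Itga8, Eya1, Kera, Epyc, Omd, Aspn, Ecm2, Nyx, Prrx2, Twist2, Cdon and Boc, and the chromosomal neighbours in the closing section. Krt18, Wnt9b, Epcam, Hba-x and Plvap were named outside it as well, also after their values were seen. Of the listed genes, 14 had no probe set with 1 gene here. The number of arrays limits the precision. Alternatives to the centring, pseudocount, limit, filter and choice of probe set were tried.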

Additional observations from a re-analysis of the deposited data

How the results depend on the processing

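The median difference of the stromal genes stayed between 1.62 and 1.98 under 11 alternatives to the centring, pseudocount, background limit, filter and choice of probe set. With the median over the probe sets of a gene, 4 genes instead of 7 were higher in replicate 2 by over 2-fold. In that setting 6 genes were above the limit on both arrays. Tbx18, Prrx1 and Gas1 dropped out, as their median replicate 1 values lay below the limit. The difference of Gas1 stayed at 3.60, and those of Tbx18, Tcf21 and Prrx1 were 0.95, 0.29 and 1.89. The setting gives weight to probe sets below the limit. With 2 times the limit, 7 genes were above it on both arrays and 5 were higher in replicate 2 by over 2-fold, as Tbx18 and Prrx1 dropped out. Taking only probe sets without a suffix letter gave Meis2 a difference of 0.57, from the 1 probe set left. The number of probe sets over 2-fold was 11 when passing on at least 1 array was enough, since 4 further probe sets below the limit in replicate 1 then counted. It was 12 with no filter, which also counts Prrx1 1458004_at, a probe set below the limit on both arrays. The list of mesodermal bHLH factors, with 3 genes, moved to -1.06 with the median over probe sets and with probe sets without a suffix, to 0.35 with no filter, to 0.28 with a limit of 100 and to -1.72 with 2 times the limit, so no direction is given for it. The podocyte list, with 2 genes, moved to -0.41, to 1.18 when passing on at least 1 array was enough and to 1.14 with a limit of 100. Without replicate 1, 10 genes and 20 probe sets of the group were above the limit, and without replicate 2, 9 and 14. No paired analysis was possible because there is 1 group. With 2 arrays, no difference has a replicate check.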

Other observations

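Genes next to the members on their chromosomes were read as well, up to 3 protein-coding genes on each side, a choice made after the values were seen. Of 44 such genes measured, 31 were above the limit on both arrays, with a median difference of -0.05, and 1 was higher in replicate 2 by over 2-fold, a share close to the 2.57% of all genes above the limit, so the count sets the neighbours apart in no way. The gene was Eya4, a transcriptional coactivator next to Tcf21 on chromosome 10, at 996 in replicate 2 and 222 in replicate 1 (2.13). The other neighbour of Tcf21, Tbpl1, gave 5528 and 4939 (0.13). Beside Postn on chromosome 3, Supt20 was lower in replicate 2, at 5701 against 11679 in replicate 1 (-1.07).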
